A study of Rattus norvegicus with 90 samples.

Results

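These are the 120 rat transcripts that moved in opposite directions most strongly in hepatocytes and in renal proximal tubular epithelial cells after 9 h of high-dose exposure to thioacetamide-S-oxide, of 40071 transcripts quantified. They were chosen by these 9 h values. A transcript was eligible when its mean level was at least 2 CPM in both cell types over their vehicle and high-dose libraries at 9 h, which left 11956. CPM are here the estimated counts of a transcript per 1000000 estimated counts on all Ensembl transcripts of its library. The log2 ratio of (mean CPM + 1) in high-dose over vehicle cultures was taken in each cell type. Transcripts with ratios of opposite sign were ranked by the smaller of the 2 absolute ratios, and the 120 highest were kept, provided that it exceeded 0.3. Of the 120, 66 were higher in hepatocytes and lower in renal cells (called hepatocyte-up transcripts from here on) and 54 were lower in hepatocytes and higher in renal cells (hepatocyte-down transcripts).

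The study compared primary cells of Sprague-Dawley rats exposed in vitro to vehicle, a low dose or a high dose of thioacetamide-S-oxide for 9 or 24 h. Hepatocytes received 0.025 or 0.125 mM, renal proximal tubular epithelial cells 0.125 or 0.5 mM, and cardiomyocytes 0.5 or 1.5 mM, so that "low" and "high" are different concentrations in each cell type. The high dose of hepatocytes and the low dose of renal cells were both 0.125 mM, and the high dose of renal cells and the low dose of cardiomyocytes were both 0.5 mM. No comparison was made at these shared concentrations. Vehicle cultures of hepatocytes and renal cells received the maintenance medium of their cell type. The paper describes no cardiomyocyte cultures and so no vehicle for them. There were 5 libraries of poly-A-selected RNA in each of the 18 groups, and the sources used here do not say how many animals or cell lots they came from. The p-values therefore measure the spread between these libraries, which may be technical.

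Thioacetamide is a classical liver toxicant that must be oxidised to do harm. Microsomal enzymes convert it first to thioacetamide-S-oxide and then to a reactive S,S-dioxide that binds proteins and lipids. Hepatocytes are rich in the enzymes of this second step and proximal tubule cells carry much of the drug metabolism of the kidney. The deposited tables give Ensembl transcript identifiers without gene names, and none of the 40071 identifiers was matched in the gene table used here (0 matches, assembly GRCr8). The transcripts are therefore described by identifier, level, length and response, their functions and sequences are not given, and the identity of the cells was not checked against marker genes. In bulk cultures, fewer cells of a type and less RNA per cell cannot be told apart.

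Library MS-183, a hepatocyte vehicle library at 24 h, stood apart. It held 249303 estimated counts on transcripts, 8.33% of its total, while the other 89 libraries held between 10519414 and 55822031, and its Spearman correlations with its own group had a median of 0.515. A low-dose renal library at 24 h (MS-145) and 2 low-dose cardiomyocyte libraries (MS-158 at 9 h, MS-172 at 24 h) also lay below the rest of their groups over the eligible transcripts. The vehicle libraries of hepatocytes at 24 h carry the labels MS-181 to MS-185, after those of all other libraries, whereas the other hepatocyte libraries run from MS-91 to MS-105 and from MS-111 to MS-120. The labels name no batch, and the part of this numbering in the 24 h results was not tested.

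The 9 h values in hepatocytes and renal cells chose the transcripts and are given as a description only. Of the eligible transcripts, 5391 (45.1%) had ratios of opposite sign at 9 h, and in 777 of these both ratios exceeded 0.3 in size. By the same measure 1247 moved together, 377 higher and 870 lower in both cell types. The smaller absolute log2 ratio ran from 1.89 in the first-ranked transcript to 0.614 and 0.613 in the last 2 kept, while the next 2 in rank, which were not kept, had 0.612 and 0.608. The limit at 120 therefore did not fall in a gap. Repeated on the deposited TPM, rescaled over the transcripts, the selection kept 62 of the 120. TPM are divided by transcript length, so a minimum level and a pseudocount weigh differently on them than on CPM.

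Among the hepatocyte-up transcripts the log2 ratio at 9 h had a median of 0.89 in hepatocytes (range 0.62 to 2.58) and of -0.94 in renal cells (-2.34 to -0.63). Among the hepatocyte-down transcripts it had a median of -0.79 in hepatocytes (-1.94 to -0.61) and of 0.91 in renal cells (0.61 to 1.75). The medians over all eligible transcripts were -0.09 in hepatocytes and -0.01 in renal cells. In the edgeR fits of these libraries, 110 of the 120 were DEGs in hepatocytes, where 18.4% of all transcripts tested were, and all but 4 were DEGs in renal cells, where 19.1% were. The selection used the same contrasts, so nothing is read from these counts. The thresholds for a DEG, by edgeR's quasi-likelihood test, were a Benjamini-Hochberg adjusted p of 0.05 and an absolute log2 fold change of 0.59, which is 0.41 in natural logarithms.

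**Figure D1:**
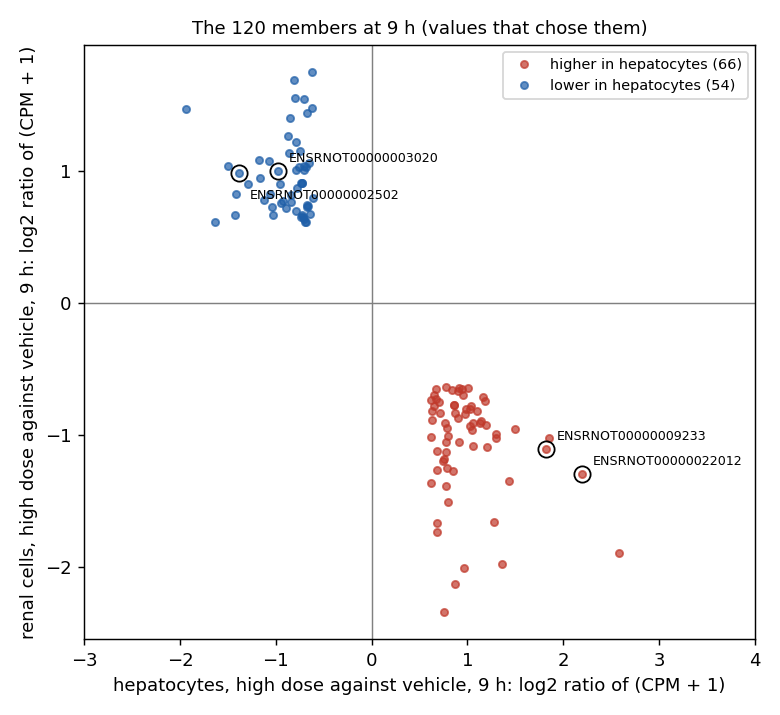
Log2 ratio of (CPM + 1), high dose over vehicle at 9 h, in hepatocytes (x axis) and renal cells (y axis) for the 120 transcripts, 1 point each, with the 4 named transcripts circled. The 66 hepatocyte-up transcripts fill the lower right and the 54 hepatocyte-down transcripts the upper left, with an empty centre that the selection itself made.

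Transcript length, which the selection did not use, had a median of 2843 bases in hepatocyte-up transcripts, while hepatocyte-down transcripts had a median of 2219 bases and all eligible transcripts 2245. In vehicle cultures at 9 h the hepatocyte-up transcripts had a median level of 16.2 CPM in hepatocytes, 40.9 in renal cells and 32.8 in cardiomyocytes. The hepatocyte-down transcripts had 18.4, 6.81 and 6.73 CPM, and all eligible transcripts 26.2, 28.2 and 25.3 CPM. These levels are not divided by length.

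The vehicle level was higher in hepatocytes than in renal cells for 42 of the 54 hepatocyte-down transcripts (77.8%) and for 18 of the 66 hepatocyte-up transcripts (27.3%), compared with 46.4% of the eligible transcripts. The vehicle level of most transcripts in both sets thus lay, in each cell type, on the side from which the high dose moved them. The vehicle libraries are part of the ratio that chose the transcripts, so these shares are not independent of it. Of the 120, 59 reached a mean of 10 CPM in both cell types (49.2%, compared with 68.1% of the eligible transcripts), 39 of them hepatocyte-up and 20 hepatocyte-down. In cardiomyocytes, which had no part in the selection, all but 17 of the 120 reached 2 CPM in vehicle cultures at 9 h (85.8%, compared with 95.1% of the eligible transcripts).

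Reads that fit several transcripts are divided by Kallisto, so that an estimated count that is a whole number in every library points to a transcript counted from reads of its own. This was so, within 0.01, for 56 of the 120 (46.7%) and for 38.9% of the eligible transcripts. For the other 64 the value may include reads shared with another transcript.

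The low dose at 9 h was compared with the same vehicle libraries and so is not independent of the selection. In hepatocytes all but 5 of the 120 had the sign of the high dose at the low dose, and in all but 3 of these the ratio was smaller. In renal cells 98 had that sign, 89 with a smaller ratio. The median of the low-dose ratio divided by the high-dose ratio was 0.381 in hepatocytes and 0.383 in renal cells. Median log2 ratios at the low dose were 0.38 and -0.31 in hepatocytes and -0.46 and 0.29 in renal cells, for hepatocyte-up and hepatocyte-down transcripts respectively.

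The cultures of 24 h were separate from those that chose the transcripts. In renal cells the pattern was present again after 24 h of the high dose. Of the 120 transcripts, 75 were DEGs, compared with 26.9% of all transcripts tested and 20.5% of the eligible ones, and 72 of these 75 had the direction seen at 9 h. Of the 66 hepatocyte-up transcripts 35 fell and 1 rose, and of the 54 hepatocyte-down transcripts 37 rose and 2 fell. Among the eligible transcripts 9.27% fell and 11.2% rose. The median log2 fold change was -0.62 (range -4.85 to 1.08) for hepatocyte-up and 0.93 (-1.15 to 3.67) for hepatocyte-down transcripts, while that of all eligible transcripts was 0.06. The 5 high-dose libraries did not overlap the 5 vehicle libraries for 84 of the 120 (70%, compared with 43.9% of the eligible transcripts).

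In hepatocytes the high dose at 24 h gave a weaker picture, which depended on MS-183 and on the method. With all libraries 22 of the 120 were DEGs, compared with 10.4% of all transcripts tested and 8.51% of the eligible ones, 17 in the direction of 9 h and 5 against it. The count was 35 by DESeq2 (20.1% of all tested), 13 by limma (4.88%) and 11 by edgeR with no filter on low counts (1.84%). Among the hepatocyte-up transcripts 13 rose and 1 fell, and of the hepatocyte-down transcripts 4 rose and 4 fell. Without MS-183, 50 were DEGs, compared with 26.7% and 22.5%, 38 in the direction of 9 h and 12 against it. The hepatocyte-up transcripts then gave 25 that rose and 4 that fell, where 11.1% of the eligible transcripts rose and 11.3% fell. The hepatocyte-down transcripts gave 13 that fell and 8 that rose, so that their direction at 24 h was mixed. The median log2 fold change without MS-183 was 0.41 for hepatocyte-up and -0.06 for hepatocyte-down transcripts, and -0.03 for all eligible transcripts. With all libraries these medians were 0.35, -0.16 and 0.01.

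The difference in response between the cell types, each at its own high dose, was tested directly at 24 h. The test was the interaction of cell type and high dose over 20 libraries that had no part in the selection. Hepatocytes and renal cells had different high-dose concentrations and different media, so the interaction does not separate cell type from these. Of the 120 transcripts 66 passed, compared with 26.5% of all transcripts tested and 29% of the eligible ones. In 57 of them hepatocytes and renal cells differed in the direction seen at 9 h, and in 9 they differed the other way. By limma 43 passed, compared with 16.8% of all tested. Without MS-183, 77 passed (37.1% of all tested, 40.8% of the eligible), 69 in the direction of 9 h and 8 against it. For hepatocyte-up transcripts the interaction had a median of 0.91 on the log2 scale, for hepatocyte-down transcripts it had a median of -0.83, and over all eligible transcripts it had a median of -0.02. Without MS-183 these medians were 0.94, -0.87 and -0.04.

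An interaction can come from 1 cell type alone. Transcripts that were DEGs in both cell types at 24 h, in opposite directions and each as at 9 h, numbered 16 with all libraries (13.3%, compared with 2.48% of the eligible transcripts that were opposite DEGs), 13 hepatocyte-up and 3 hepatocyte-down. Without MS-183 they numbered 31, 21 and 10 respectively, and 1 more hepatocyte-down transcript was a DEG in both cell types with both directions turned. Opposite DEGs of either kind then made up 26.7% of the 120 and 6.05% of the eligible transcripts, and 8 of the 120 were DEGs in both cell types in the same direction (6.67%, compared with 1.62%). A further 35 were DEGs in renal cells only (29.2%, compared with 12.8% of the eligible), 10 in hepatocytes only (8.33%, compared with 14.8%) and 35 in neither (29.2%, compared with 64.7%).

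**Figure D2:**
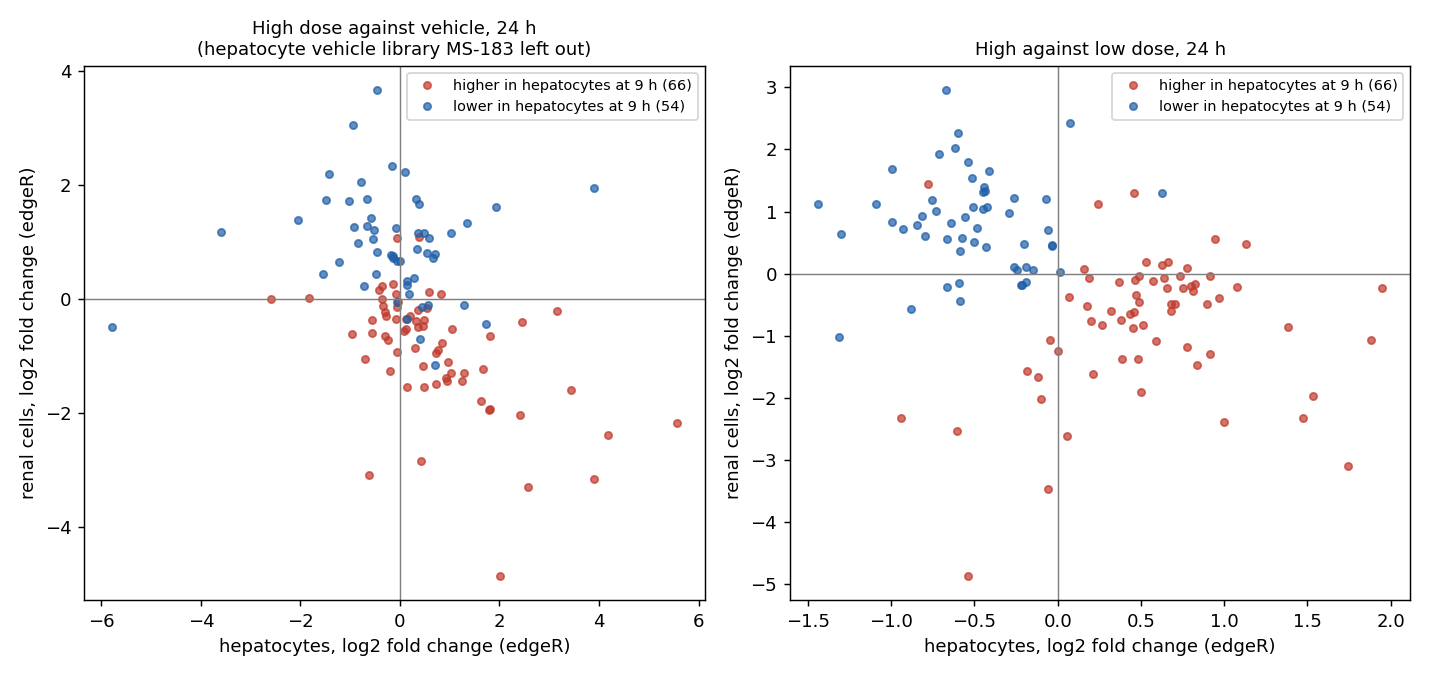
EdgeR log2 fold change at 24 h in hepatocytes (x axes) and renal cells (y axes) for the 120 transcripts, 1 point each, for the high dose against vehicle without MS-183 (left) and against the low dose (right). Against vehicle the hepatocyte-down transcripts lie on both sides of 0 in hepatocytes (25 higher, 29 lower), and against the low dose 51 of the 54 lie below 0.

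The low dose in hepatocytes at 24 h was compared with the same vehicle libraries of 24 h as the high dose, and its difference from the low dose at 9 h was not tested. Of the 120 transcripts 41 were DEGs (19.4% of all tested, 17.5% of the eligible), 12 in the direction of the high dose at 9 h and 29 against it. The hepatocyte-up transcripts gave 14 that fell and 9 that rose, and of the hepatocyte-down transcripts 15 rose and 3 fell. Without low-dose library MS-111, MS-112, MS-113 or MS-115 the count was 22, 22, 23 or 24, compared with 12.6% to 13.1% of all tested, and limma gave 19 with all libraries, compared with 9.98%. Without MS-183, 73 were DEGs (37% and 33.6%), 26 in that direction and 47 against it. Of the hepatocyte-up transcripts 25 then fell and 19 rose, and of the hepatocyte-down transcripts 22 rose and 7 fell, where 17.8% of the eligible transcripts fell and 15.8% rose. The 5 low-dose libraries lay below all 4 remaining vehicle libraries for 28 hepatocyte-up transcripts (42.4%, compared with 29.6% of the eligible) and above them for 22 (33.3%, compared with 30.9%). Of the hepatocyte-down transcripts 27 lay above (50%) and 10 below (18.5%). Over all eligible transcripts these groups did not overlap in either direction for 60.4%, compared with 16.5% for the low dose at 9 h with 5 vehicle libraries. With MS-183 included, the low-dose libraries at 24 h lay below all vehicle libraries for 12 hepatocyte-up transcripts (18.2%, compared with 8.15% of the eligible) and above them for another 12 (18.2%, compared with 22.9%), an even split. Of the hepatocyte-down transcripts 19 then lay above (35.2%) and 3 below (5.56%), and the groups did not overlap for 31.1% of the eligible transcripts.

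The vehicle libraries themselves differed between the times. Without MS-183, the median log2 ratio of vehicle at 24 h over vehicle at 9 h in hepatocytes was 0.30 for hepatocyte-up and -0.38 for hepatocyte-down transcripts, compared with -0.01 for all eligible transcripts. With all libraries these medians were 0.45, -0.35 and -0.07. In high-dose hepatocytes the ratio of 24 h over 9 h had medians of -0.21 and 0.38, compared with 0.09 for all eligible transcripts. In renal vehicle cultures the medians were -0.31 and 0.06, compared with -0.09. In renal high-dose cultures they were 0.09 and 0.04, compared with 0.03. The 9 h libraries in these ratios chose the transcripts, and the selection favours a vehicle ratio with the sign of the 9 h response and a high-dose ratio with the opposite sign. The hepatocyte vehicle libraries at 24 h are those labelled MS-181 to MS-185.

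A comparison that uses neither the vehicle libraries nor any library of the selection, high dose against low dose at 24 h, was added after the data were seen. In hepatocytes 49 of the 120 were DEGs, compared with 14.9% of all transcripts tested and 11.8% of the eligible ones, and 47 of the 49 had the direction of 9 h. Of the hepatocyte-up transcripts 28 rose from low to high dose and 2 fell, and of the hepatocyte-down transcripts 19 fell and none rose (0 of 54). Among the eligible transcripts 5.58% rose and 6.26% fell. The median log2 fold change was 0.51 (range -0.94 to 1.95) for hepatocyte-up and -0.51 (-1.44 to 0.63) for hepatocyte-down transcripts, compared with 0.01 for all eligible transcripts. This comparison shares its high-dose and its low-dose libraries with the comparisons against vehicle.

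In renal cells 61 of the 120 were DEGs between high and low dose at 24 h, compared with 19.7% of all transcripts tested and 15.1% of the eligible ones, and 59 had the direction of 9 h. Of the hepatocyte-up transcripts 29 fell and 1 rose, and of the hepatocyte-down transcripts 30 rose and 1 fell, where 7.5% of the eligible transcripts fell and 7.59% rose. The median log2 fold changes were -0.56 and 0.80. Without low-dose library MS-145, 67 were DEGs (23.2% of all tested), 65 of them in the direction of 9 h. In 24 of the 120 (20%) both cell types had DEGs in opposite directions between the doses, 9 hepatocyte-up and 15 hepatocyte-down, compared with 0.995% of the eligible transcripts. In 3 both cell types had DEGs in the same direction (2.5%, compared with 2.29% of the eligible).

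The low dose in renal cells at 24 h made 2 of the 120 DEGs by edgeR, both of them hepatocyte-down transcripts that rose, compared with 0.0622% of all transcripts tested (11 of 17684), and 0.0452% that rose. At an unadjusted p of less than 0.05 there were 1120 transcripts. Median log2 fold changes were -0.07 for hepatocyte-up and 0.11 for hepatocyte-down transcripts. Without MS-145 there were 3 DEGs among the 120, compared with 0.295% of all tested.

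**Figure D3:**
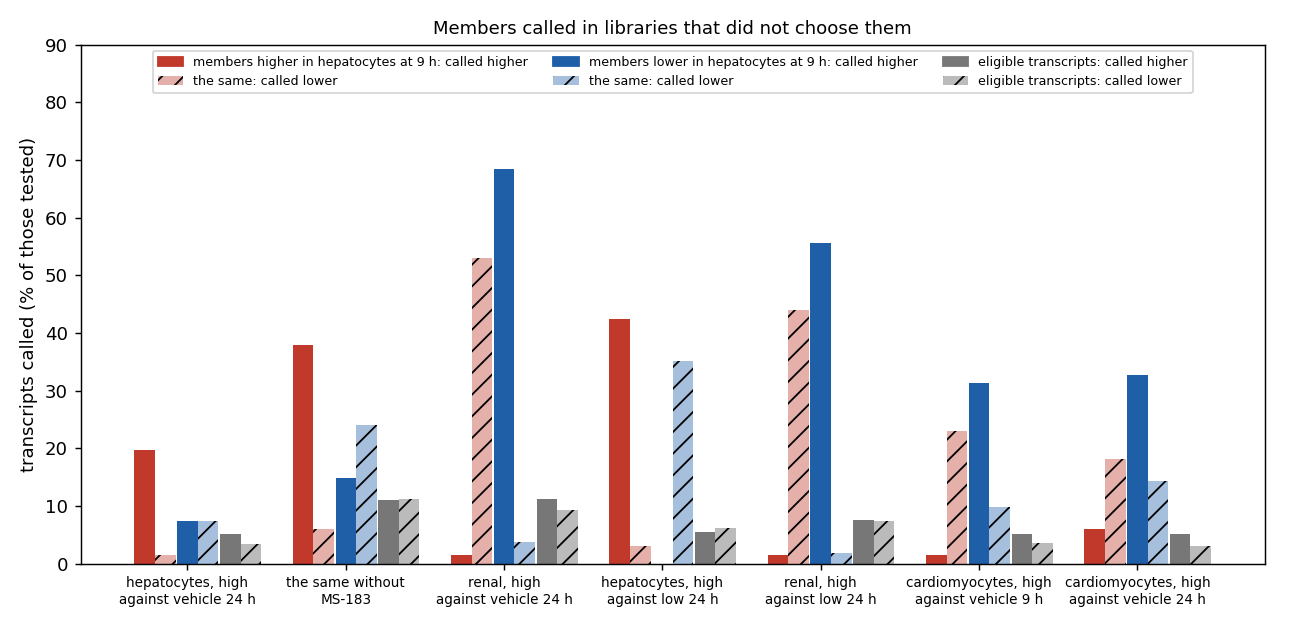
Share of tested transcripts that were DEGs (y axis, percent) in 7 comparisons whose libraries did not choose the transcripts, split into higher (solid) and lower (hatched) for hepatocyte-up (red), hepatocyte-down (blue) and all eligible transcripts (grey). The opposite pairs of bars stand out in renal cells and in the comparisons of high against low dose. In the latter, with the low dose and not vehicle as reference, 47 of 49 DEGs in hepatocytes and 59 of 61 in renal cells had the direction of 9 h.

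In cardiomyocytes, which received the highest concentrations, more of these transcripts moved in the renal direction than in that of hepatocytes. At the high dose and 9 h, 37 were DEGs and 4 were not tested, compared with 12.6% of all transcripts tested and 8.9% of the eligible ones. Of the hepatocyte-up transcripts 15 fell and 1 rose, and of the hepatocyte-down transcripts 16 rose and 5 fell, where 3.68% of the eligible transcripts fell and 5.21% rose. At 24 h 39 were DEGs and 5 were not tested, compared with DEG shares of 12.4% and 8.23%. Of the hepatocyte-up transcripts 12 fell and 4 rose, and of the hepatocyte-down transcripts 16 rose and 7 fell, where 3.08% of the eligible transcripts fell and 5.15% rose. The difference between cardiomyocytes and the other cell types was not tested.

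The medians in cardiomyocytes stayed near 0. The median log2 ratio of (CPM + 1) at the high dose was -0.09 for hepatocyte-up and 0.19 for hepatocyte-down transcripts at 9 h, compared with 0.07 for all eligible transcripts. At 24 h these medians were -0.04, 0.13 and 0.03. At the low dose they were -0.15, 0.07 and -0.05 at 9 h and -0.15, -0.04 and -0.15 at 24 h, with MS-158 and MS-172 included.

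**Figure D4:**
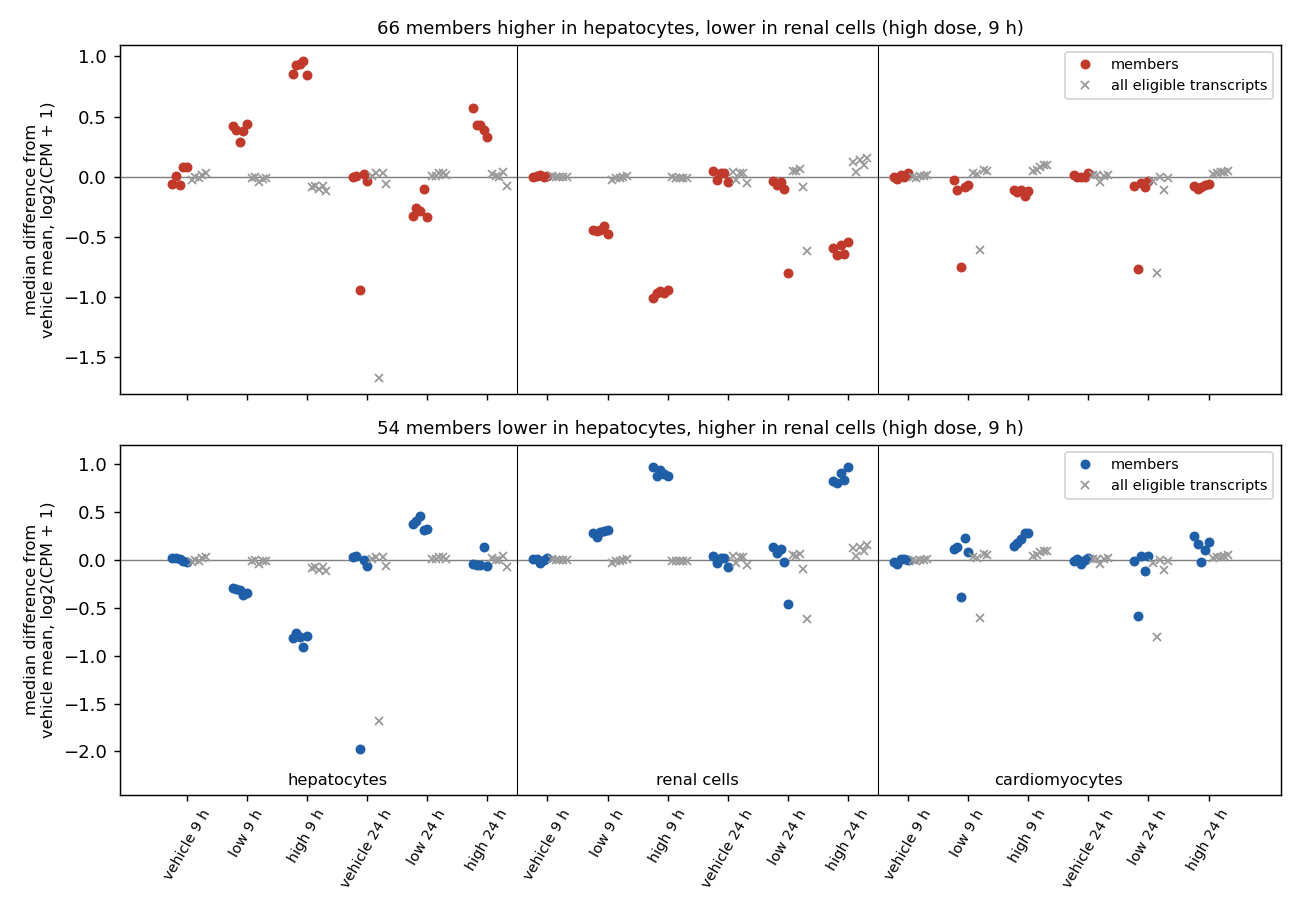
Median over the hepatocyte-up (top) and hepatocyte-down transcripts (bottom) of the difference in log2(CPM + 1) from the vehicle mean of the same cell type and time (y axis), 1 point per library in 18 groups (x axis), with crosses for all eligible transcripts and MS-183 left out of its vehicle mean. Hepatocyte-up medians run from 0.85 to 0.97 at the high dose and 9 h in hepatocytes, from -0.33 to -0.10 at the low dose and 24 h and from 0.33 to 0.57 at the high dose and 24 h, and the low points of MS-183, MS-145, MS-158 and MS-172 are shared by the crosses.

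Of the 120, 4 transcripts are given by identifier, the highest-ranked pair in each direction with at least 10 CPM in both cell types. ENSRNOT00000022012 (2645 bases, hepatocyte-up, rank 5) had whole counts in every library. In hepatocytes at 9 h it was at 36.2, 45.1, 36.2, 50.7 and 60.6 CPM in vehicle and at 190.3, 223.7, 200.1, 241.9 and 209.9 CPM in high-dose libraries. In renal cells at 9 h it was at 118.4, 117.9, 122.6, 119.7 and 117.3 CPM in vehicle and at 45.2, 50.6, 46.4, 48.8 and 49.3 CPM in high-dose libraries. The groups did not overlap in either cell type, and the high dose left hepatocytes above the level of vehicle renal cells and renal cells within the range of vehicle hepatocytes.

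At 24 h ENSRNOT00000022012 was at 74.04, 67.1, 36.1, 86.9 and 70.1 CPM in vehicle hepatocytes, the lowest from MS-183, and at 149.8, 146.2, 143.98, 145.2 and 156.3 CPM in high-dose hepatocytes. The low-dose hepatocytes were at 36.01, 33.4, 36.8, 54.5 and 44.8 CPM, below the vehicle libraries other than MS-183. At the low dose it fell by 0.81 on the log2 scale (SE 0.22, edgeR adjusted p = 2.49e-02), or by 0.92 (SE 0.14, adjusted p = 1.76e-04) without MS-183. This fall no longer passed by limma (adjusted p = 0.190), by edgeR with no filter (0.221) or, with adjusted p from 0.0661 to 0.114, without any 1 of vehicle libraries MS-181, MS-182, MS-184 and MS-185 or low-dose libraries MS-111, MS-112, MS-113 and MS-115. In renal cells it was at 73.5, 66.5, 71.5, 75.05 and 68.1 CPM in vehicle and at 34.3, 33.3, 35.6, 35.3 and 33.1 CPM in high-dose libraries. The high-dose libraries thus lay above all vehicle libraries in hepatocytes and below all of them in renal cells. By edgeR it rose in hepatocytes by a log2 fold change of 1.09 (SE 0.21, n = 5 and 5, adjusted p = 7.00e-03), or 0.96 (SE 0.09, adjusted p = 1.05e-05) without MS-183. With all libraries and no filter on low counts, the adjusted p of that rise was 0.140 by edgeR, above 0.05. It fell by 1.11 on the log2 scale in renal cells (SE 0.04, adjusted p = 6.25e-09), and the interaction was 2.22 (SE 0.20, adjusted p = 8.58e-08), or 2.11 (SE 0.09, adjusted p = 9.60e-13) without MS-183.

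Between the low and the high dose at 24 h ENSRNOT00000022012 rose by a log2 fold change of 1.88 (SE 0.12, edgeR adjusted p = 2.23e-06) in hepatocytes and fell by 1.07 (SE 0.06, adjusted p = 1.44e-06) in renal cells. In cardiomyocytes at 9 h it was at 67.8, 69.9, 62.04, 67.4 and 64.5 CPM in vehicle and at 66.8, 69.6, 71.98, 81.5 and 80.8 CPM in high-dose libraries, which overlap. Its log2 fold change there was 0.11 (SE 0.05, edgeR adjusted p = 0.128), and at 24 h it was 0.05 (SE 0.07, adjusted p = 0.628).

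ENSRNOT00000009233 (2420 bases, hepatocyte-up, rank 7) was the most abundant of the 4, and its counts were not whole. In hepatocytes at 9 h it was at 162.9, 166.9, 162.7, 180.1 and 171.1 CPM in vehicle and at 606.0, 589.5, 616.8, 620.9 and 551.1 CPM in high-dose libraries. In renal cells it was at 171.6, 166.7, 165.8, 163.8 and 167.01 CPM in vehicle and at 75.1, 81.3, 76.6, 73.7 and 79.3 CPM in high-dose libraries. Both cell types started from nearly the same level and parted without overlap.

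At 24 h vehicle hepatocytes held ENSRNOT00000009233 at 441.5, 423.8, 108.3, 436.0 and 463.7 CPM, the lowest from MS-183, and high-dose hepatocytes at 731.8, 653.0, 694.5, 599.3 and 472.9 CPM. The high-dose libraries lay above all vehicle libraries, the lowest of them only just. The log2 fold change in hepatocytes was 0.71 (SE 0.36, edgeR adjusted p = 0.250), and without MS-183 it was 0.48 (SE 0.10, adjusted p = 3.72e-03), under the fold threshold. By DESeq2 with all libraries it was 0.71 with an adjusted p of 0.0484 and passed. In renal cells vehicle libraries were at 153.1, 117.2, 139.1, 145.9 and 113.6 CPM and high-dose libraries at 50.5, 38.1, 52.8, 47.9 and 51.3 CPM. It fell there by 1.53 on the log2 scale (SE 0.09, adjusted p = 1.59e-07), without overlap, and the interaction was 2.29 (SE 0.39, adjusted p = 2.06e-04), or 2.06 (SE 0.15, adjusted p = 1.28e-09) without MS-183.

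From low to high dose at 24 h the log2 fold change of ENSRNOT00000009233 in hepatocytes was 0.50 (SE 0.10, edgeR adjusted p = 1.69e-03), under the fold threshold, and ran from 0.45 to 0.57 when each library was left out in turn. The low-dose hepatocytes were at 478.7, 451.7, 482.5, 404.7 and 447.3 CPM, of which 2 lay above the lowest high-dose library. In renal cells it fell by 1.91 from low to high dose (SE 0.09, adjusted p = 5.01e-07).

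In cardiomyocytes ENSRNOT00000009233 moved as in renal cells. It was at 371.7, 349.6, 362.6, 312.8 and 373.5 CPM in vehicle and at 150.4, 102.2, 63.97, 42.8 and 46.6 CPM in high-dose libraries at 9 h, and fell by 2.17 on the log2 scale (SE 0.32, edgeR adjusted p = 1.84e-04). At 24 h it fell by 1.36 (SE 0.17, adjusted p = 1.05e-04). The high-dose libraries at 9 h were widely spread, and all lay below the vehicle libraries.

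ENSRNOT00000002502 (2403 bases, hepatocyte-down, rank 16), did not have whole counts. At 9 h it was at 31.4, 26.7, 26.4, 29.9 and 26.3 CPM in vehicle and at 9.88, 8.67, 11.8, 9.66 and 10.9 CPM in high-dose hepatocytes. In renal cells at 9 h it was at 42.8, 40.01, 42.9, 41.4 and 44.6 CPM in vehicle and at 89.4, 80.4, 88.1, 87.2 and 78.5 CPM in high-dose libraries. Neither pair of groups overlapped.

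At 24 h the vehicle levels of ENSRNOT00000002502 were different. Vehicle hepatocytes were at 13.9, 14.1, 45.9, 11.6 and 15.4 CPM, the highest from MS-183, and high-dose hepatocytes at 15.1, 18.8, 18.00, 20.4 and 20.7 CPM. Low-dose hepatocytes were at 36.1, 34.3, 36.4, 34.5 and 33.8 CPM, the highest of the 3 groups apart from MS-183. Against vehicle the log2 fold change was 0.17 (SE 0.29, edgeR adjusted p = 0.780) at the high dose, or 0.41 (SE 0.13, adjusted p = 2.15e-02) without MS-183, under the fold threshold. The log2 ratio of (mean CPM + 1) had the other sign with all libraries, at -0.11. The transcript rose by 1.10 (SE 0.25, adjusted p = 1.08e-02) at the low dose. Without low-dose library MS-111, MS-112 or MS-113 that adjusted p was 0.0557, 0.0525 or 0.0560 by edgeR, above 0.05, and without MS-183 it was 3.43e-07. By limma with all libraries it was 0.0867. From low to high dose it fell by 0.88 (SE 0.09, adjusted p = 2.31e-05).

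In renal cells vehicle libraries at 24 h held ENSRNOT00000002502 at 79.8, 98.3, 79.6, 78.2 and 93.1 CPM, above the 40.01 to 44.6 CPM of 9 h, and high-dose libraries at 51.4, 61.5, 50.9, 59.4 and 51.4 CPM. It fell by 0.70 on the log2 scale (SE 0.11, edgeR adjusted p = 2.26e-04), opposite to 9 h. From low to high dose at 24 h its log2 fold change in renal cells was -0.56 (SE 0.11, adjusted p = 2.62e-03), under the fold threshold, but it passed at -0.61, -0.63 and -0.60 without MS-143, MS-147 and MS-149 respectively. The interaction was 1.08 (SE 0.22, adjusted p = 1.21e-03), or 1.15 (SE 0.17, adjusted p = 1.24e-05) without MS-183, also opposite to 9 h, and with all libraries its adjusted p was 0.0697 by limma, above 0.05. In cardiomyocytes it fell by 0.74 at 9 h (SE 0.09, adjusted p = 6.62e-05) and by 0.77 at 24 h (SE 0.12, adjusted p = 7.03e-04).

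ENSRNOT00000003020 (1933 bases, hepatocyte-down, rank 17) had whole counts in every library. In hepatocytes at 9 h it was at 139.7, 143.2, 146.5, 134.2 and 131.2 CPM in vehicle and at 71.3, 71.6, 74.3, 67.1 and 66.2 CPM in high-dose libraries. In renal cells it was at 20.1, 19.4, 17.9, 18.6 and 19.5 CPM in vehicle and at 41.8, 36.05, 38.3, 41.5 and 38.9 CPM in high-dose libraries. The groups did not overlap in either cell type.

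At 24 h vehicle hepatocytes held ENSRNOT00000003020 at 147.7, 140.6, 12.03, 149.3 and 133.6 CPM, the lowest from MS-183, and high-dose hepatocytes at 85.03, 91.9, 85.4, 97.5 and 65.9 CPM. With all libraries the log2 fold change was -0.54 (SE 0.41, edgeR adjusted p = 0.449), and without MS-183 it fell by 0.78 (SE 0.08, adjusted p = 3.46e-05). Apart from MS-183, every high-dose library lay below every vehicle library. In renal cells vehicle libraries were at 19.9, 16.5, 20.1, 20.7 and 14.99 CPM and high-dose libraries at 85.04, 66.9, 85.8, 69.3 and 94.4 CPM, without overlap. It rose there by a log2 fold change of 2.06 (SE 0.10, adjusted p = 5.26e-08), and the interaction was -2.60 (SE 0.40, adjusted p = 5.88e-05), or -2.79 (SE 0.14, adjusted p = 1.11e-11) without MS-183. With all libraries its adjusted p was 0.0769 by limma, above 0.05.

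The levels of ENSRNOT00000003020 in high-dose cultures at 24 h overlapped between the cell types, although the vehicle libraries other than MS-183 lay at 133.6 CPM and above in hepatocytes and at 20.7 CPM and below in renal cells. From low to high dose at 24 h it fell by 0.71 in hepatocytes (SE 0.07, edgeR adjusted p = 3.49e-05) and rose by 1.93 in renal cells (SE 0.16, adjusted p = 1.54e-05). In cardiomyocytes it rose by 0.96 at 9 h (SE 0.05, adjusted p = 1.14e-07) and by 1.30 at 24 h (SE 0.10, adjusted p = 3.23e-06), the renal direction.

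**Figure D5:**
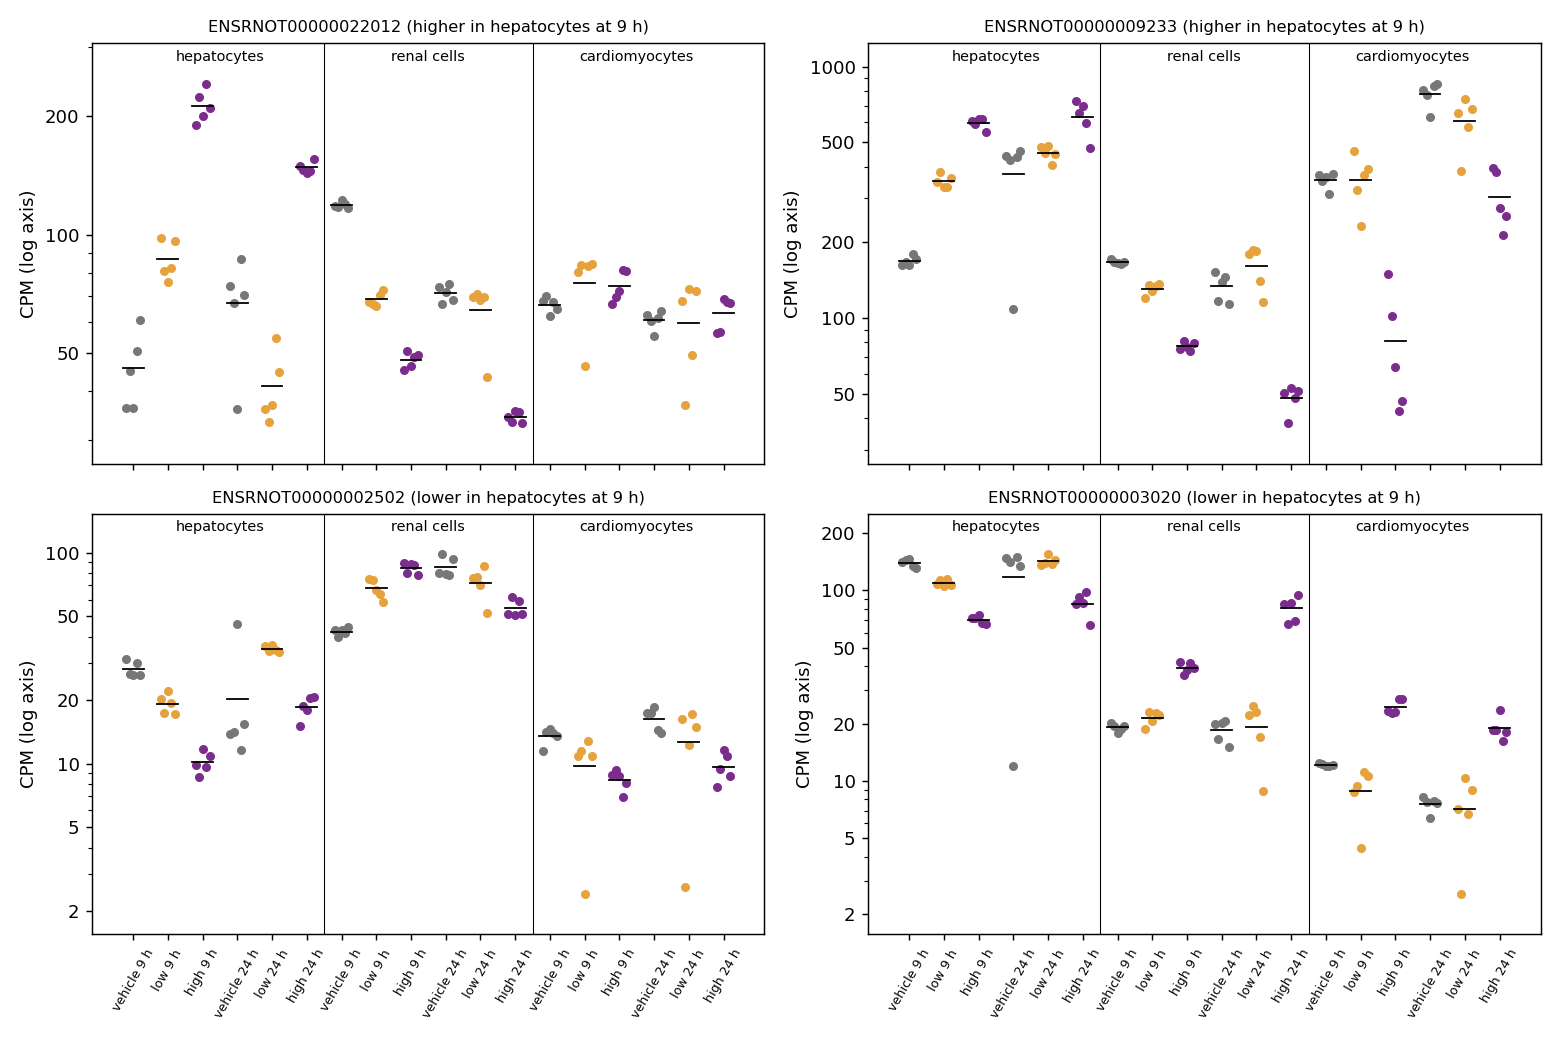
CPM (log axis) of the 4 named transcripts in each of the 5 libraries of 18 groups (x axis), with vehicle in grey, low dose in orange, high dose in purple and a bar at each group mean. ENSRNOT00000022012 parts in opposite directions at both times. ENSRNOT00000003020 does so too, except that at 24 h vehicle hepatocyte library MS-183 (12.03 CPM) lies below all high-dose libraries. ENSRNOT00000002502 starts at 24 h from vehicle levels of 78.2 to 98.3 CPM in renal cells instead of 40.01 to 44.6 CPM.

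For the high dose against the low dose at 24 h in hepatocytes, 26 of the 59 transcripts with at least 10 CPM in both cell types were DEGs (44.1%, compared with 8.83% of the eligible transcripts at that level), and 23 of the other 61 were (37.7%, compared with 18.3% of the other eligible transcripts). In renal cells 26 of the 59 (44.1%, compared with 13.1%) and 35 of the 61 (57.4%, compared with 19.4%) were DEGs. Of the 56 transcripts with whole counts, 28 were DEGs in hepatocytes between the doses (50%, compared with 15.8% of all transcripts with whole counts) and 32 in renal cells (57.1%, compared with 23%). In the interaction at 24 h, 39 of these 56 passed (69.6%, compared with 30.6% of all transcripts with whole counts and 31.7% of the eligible ones). Of the 64 without whole counts 27 passed (42.2%, compared with 27.3% of the eligible transcripts without whole counts).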

How the data were processed

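The authors deposited, for each of 90 libraries, TPM and estimated counts of 65166 targets from kallisto 0.42.4 on Rnor_6.0 (tool and build per the submitters' processing notes). Of these 40071 are Ensembl transcripts, and the 25095 genomic intervals were left out. The expected (estimated) counts were rounded to whole numbers here. The groups of a comparison were fitted with edgeR 4.0.16 under R 4.3.3 (TMM after filterByExpr, then glmQLFit and glmQLFTest). P-values were adjusted after Benjamini-Hochberg over all transcripts tested. The study's test, Sleuth, was not used here. The standard error was the log2 fold change divided by the square root of F. For the renal comparisons of high dose against vehicle and against low dose at 24 h, and for the interaction, the fit was also run on simulated counts. These were drawn with edgeR's own dispersions and changed only in well-counted transcripts, so low counts were not covered. Transcript counts outside MS-183 were at least 10519414 per library. The deposited TPM served for an alternative only.

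The transcripts and lists were chosen with earlier results of these data known. Gene and marker lists could not be applied without gene names. Named are the highest-ranked pair of each direction with at least 10 CPM in both cell types. The comparisons of high with low dose at 24 h and the restriction to whole counts were added after seeing the data. Alternatives were DESeq2 1.42.0, upper-quartile normalization, no filter beyond 1 count, limma 3.58.1 on log2(CPM + 0.5), no fold-change threshold and each library left out in turn, and for the selection a pseudocount of 5, a minimum of 5 CPM and TPM.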

Additional observations from a re-analysis of the deposited data

Results flagged for a closer look

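Of the 72 groups of 5 libraries checked for the 4 named transcripts, 6 held a library far from the others, and chance alone gives such a library in about 1 in 20 groups, here 3.6. In vehicle hepatocytes at 24 h, MS-183 was the lowest library for ENSRNOT00000009233 (108 CPM) and ENSRNOT00000003020 (12.03 CPM) and the highest for ENSRNOT00000002502 (45.9 CPM). These MS-183 values rest on only 27, 3 and 11.4 estimated counts respectively. In low-dose cardiomyocytes at 9 h, MS-158 was the lowest for ENSRNOT00000022012 (46.3 CPM) and ENSRNOT00000002502 (2.42 CPM). In low-dose renal cells at 24 h, MS-145 was the lowest for ENSRNOT00000022012 (43.4 CPM).

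By the edgeR interaction test at 24 h with all libraries, all 4 named transcripts differed between hepatocytes and renal cells in their high-dose response. The test does not separate cell type from the high-dose concentration and the medium, which differed between the cell types. Hepatocytes minus renal cells, the difference of log2 fold changes was 2.22 for ENSRNOT00000022012, 2.29 for ENSRNOT00000009233, 1.08 for ENSRNOT00000002502 and -2.60 for ENSRNOT00000003020. The sign for ENSRNOT00000002502 was opposite to that of 9 h. By limma the interactions of ENSRNOT00000002502 and ENSRNOT00000003020 had adjusted p of 0.0697 and 0.0769 and no longer passed.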

How the results depend on the processing

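No paired analysis was possible because no replicate number is shared between groups. The share of all transcripts tested that were DEGs under the same alternative stands in brackets after each count of DEGs among the 120. Leaving out each library in turn gave 15 to 50 (6.04% to 26.7%) for the high dose and 22 to 73 (12.6% to 37%) for the low dose in hepatocytes at 24 h, where 22 and 41 were found with all libraries, and the highest counts of both were those without MS-183. The range was 1 to 3 (0.0223% to 0.295%) for the low dose in renal cells at 24 h, 59 to 77 (21.5% to 37.1%) for the interaction, 46 to 52 (13.5% to 15.4%) and 56 to 67 (16.7% to 23.2%) for high against low dose in hepatocytes and renal cells, and 72 to 75 (25.9% to 27.1%) for the high dose in renal cells at 24 h.

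For the high dose in hepatocytes at 24 h, DESeq2 gave 35 (20.1%), no filter 11 (1.84%) and limma 13 (4.88%). For the low dose there, no filter gave 22 (4.14%) and limma 19 (9.98%). The low dose in renal cells at 24 h gave 1 with upper-quartile normalization (0.0509%) and 1 with no filter (0.0285%), and limma gave 43 (16.8%) for the interaction. The cause was not tested. Without the fold-change threshold, 88 passed (40.5%) for high against low dose in hepatocytes, and 73 (45.3%) and 59 (30.7%) in cardiomyocytes at 9 and 24 h. Over transcripts with whole counts, 56 of the 120 and so fewer by construction, the counts were 14 (11.9%) and 39 (29.9%) for the high dose at 24 h in hepatocytes and renal cells, 18 (21.5%) and 1 (0.0761%) for the low dose, 39 (30.6%) for the interaction, 28 (15.8%) and 32 (23%) for high against low dose, and 18 (13.5%) and 16 (13.8%) for cardiomyocytes at 9 and 24 h. For the high dose at 9 h, which chose the transcripts, they were 53 (19.6%) and 56 (21%), and nothing is read from these.

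With a pseudocount of 5 CPM, 462 eligible transcripts moved oppositely by more than 0.3, in place of 777. The deposited TPM kept 62 of the 120, while a minimum of 5 CPM kept 83, a pseudocount of 5 kept 84 and TMM-scaled CPM kept 107. For the low dose in hepatocytes at 24 h, leaving out each library in turn gave log2 fold changes from -0.027 to 0.32 for ENSRNOT00000009233 and from -0.074 to 0.32 for ENSRNOT00000003020, the lowest without MS-183 and 0.21 and 0.17 with all libraries, and neither passed with or without it. Of 656 values of the named transcripts under these alternatives, 632 kept their direction and side of the threshold. A further 17 no longer passed, 5 newly passed and the 2 just named turned their direction without MS-183. The 656 include the high dose at 9 h in hepatocytes and renal cells, which chose the transcripts, so the selection itself favoured agreement there. Among the 17 were 10 for the low-dose fall of ENSRNOT00000022012 and 4 for the low-dose rise of ENSRNOT00000002502 in hepatocytes at 24 h. Of the other 3, the high-dose rise of ENSRNOT00000022012 in hepatocytes at 24 h had an adjusted p of 0.140 by edgeR without a filter, and the interactions of ENSRNOT00000002502 and ENSRNOT00000003020 had adjusted p of 0.0697 and 0.0769 by limma. The missing gene names, the shallow library MS-183 and the 5 libraries per group limit what these values can show.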
